A study of Mus musculus with 4 samples.

Results

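Runx2 binding was examined at 9 histone deacetylase genes of the mouse, Hdac1 to Hdac9, in MC3T3-E1 cells at 3 stages of osteoblast differentiation. These 9 genes were taken from the 22241 protein-coding genes of the GENCODE M1 annotation. A Runx2 peak was counted for a gene when it overlapped by at least 1 bp the gene body widened by 20 kb on each side, called the window below. The windows held 33 of 25457 peaks at day 0, 71 of 60596 peaks at day 9 and 52 of 40330 peaks at day 28. MC3T3-E1 subclone 4 is a single preosteoblast line from mouse calvaria, labelled as strain C57BL/6 and used at passages 28 to 31. The day 0 cells were proliferating preosteoblasts, the day 9 cells were depositing matrix and the day 28 cells were mineralizing, after induction with ascorbic acid and beta-glycerophosphate. DNA bound by Runx2 was recovered with the antibody M70 and sequenced, and sonicated DNA of day 9 cells was the control for all 3 time points, so the 3 lists share their control. Replicate libraries were pooled before peaks were called, which leaves 1 list per time point and no replicate error, so no difference between days could be tested. Peak lists carry no expression, so the labelled cell stage could not be checked by marker genes.

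Histone deacetylases remove acetyl groups from lysines of histones and other proteins. The class I enzymes Hdac1, Hdac2, Hdac3 and Hdac8 are mostly nuclear, and the first 3 of these act within corepressor complexes. The class IIa enzymes Hdac4, Hdac5, Hdac7 and Hdac9 move between nucleus and cytoplasm in response to signals and bind transcription factors of the MEF2 family, and the class IIb enzyme Hdac6 is cytoplasmic and deacetylates tubulin. Runx2, the DNA-binding regulator of osteoblast differentiation, is known to bind several of these proteins, and binding of Runx2 at the genes that encode them is the subject here.

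Sequences of 8 bound regions are printed to show what the peaks covered, chosen after their values were seen. Capitals mark TGTGGT, the core Runx motif, or its reverse complement ACCACA, and each sequence is read 5′ to 3′ from the plus strand of mm9 (NCBIM37). The Hdac2 stretch, chr10:36694200-36694349, is the 150 bases before the first annotated start site, which lay under a peak at all 3 days. The Hdac6 stretch, chrX:7525201-7525301, and the Hdac9 stretch, chr12:35214205-35214305, are the centres of the day 28 peaks over their start sites. The Hdac8 stretch, chrX:99503086-99503186, is the centre of the day 9 peak at intron 9 and holds 2 matches whose starts are 23 bases apart. Both Hdac7 stretches, chr15:97647142-97647242 and chr15:97650578-97650678, are centres of day 28 peaks in intron 1 with 2 matches each. The Hdac5 stretch, chr11:102070327-102070567, is the 241 bases around the centre of the day 0 peak in intron 3, with 1 match near its left end. The Hdac4 stretch, chr1:94027147-94027247, is the centre of the day 9 peak in intron 1, where the motif was not found. Most of the printed stretches hold the motif, so they do not represent the peaks of the windows. Of those peaks, 12.1%, 16.9% and 13.5% had it within 50 bp of the centre at days 0, 9 and 28.
Hdac2: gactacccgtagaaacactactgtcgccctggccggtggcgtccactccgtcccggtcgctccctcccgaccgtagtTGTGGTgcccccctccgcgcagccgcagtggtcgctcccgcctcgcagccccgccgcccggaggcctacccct
Hdac6: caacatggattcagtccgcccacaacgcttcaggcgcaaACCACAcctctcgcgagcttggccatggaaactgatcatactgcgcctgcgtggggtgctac
Hdac9: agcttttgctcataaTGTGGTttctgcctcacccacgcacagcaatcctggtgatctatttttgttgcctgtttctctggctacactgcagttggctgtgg
Hdac8: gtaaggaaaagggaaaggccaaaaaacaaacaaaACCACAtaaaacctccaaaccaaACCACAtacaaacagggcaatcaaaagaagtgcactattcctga
Hdac7, first: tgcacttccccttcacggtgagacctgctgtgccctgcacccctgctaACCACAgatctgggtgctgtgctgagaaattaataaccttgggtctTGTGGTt
Hdac7, second: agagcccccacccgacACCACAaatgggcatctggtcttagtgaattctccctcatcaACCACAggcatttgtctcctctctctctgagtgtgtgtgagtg
Hdac5: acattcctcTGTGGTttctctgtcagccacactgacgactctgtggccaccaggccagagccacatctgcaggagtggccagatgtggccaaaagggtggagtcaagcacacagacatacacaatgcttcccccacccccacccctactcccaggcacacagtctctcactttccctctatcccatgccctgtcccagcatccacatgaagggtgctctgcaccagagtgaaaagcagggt
Hdac4: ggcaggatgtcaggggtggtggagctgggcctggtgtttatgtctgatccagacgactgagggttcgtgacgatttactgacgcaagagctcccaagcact

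The windows of Hdac4, Hdac5 and Hdac7 held most of the member peaks. Together they had 27 of the 33 member peaks at day 0 (81.8%), 52 of 71 at day 9 (73.2%) and 35 of 52 at day 28 (67.3%). Hdac7, with 12, 18 and 17 peaks at days 0, 9 and 28, had the most peaks summed over the 3 lists. Hdac4 had 7, 21 and 10 peaks, and Hdac5 had 8, 13 and 8. The other 6 genes had at most 6 peaks at any day. Hdac1 had 0, 6 and 5 peaks, Hdac3 had 3, 5 and 3, and Hdac9 had 1, 3 and 4. Hdac8 had 1, 3 and 3 peaks, Hdac2 had 1 at each day, and Hdac6 had 0, 1 and 1.

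Counted against the length of the window, Hdac7 and Hdac5 stood above percentile 90 of all genes at every day. Hdac7 had 13.1, 19.6 and 18.5 peaks per 100 kb at days 0, 9 and 28, the 98.8th, 96.5th and 99.2nd percentiles of the 22241 genes. Hdac5 had 10.6, 17.2 and 10.6 peaks per 100 kb, the 97.6th, 94.6th and 93.3rd percentiles. Hdac4 spread its peaks over a window of 259.6 kb, and its 2.70, 8.09 and 3.85 peaks per 100 kb placed it at the 67.5th, 76.4th and 63.8th percentiles. The median gene had 1.69, 3.49 and 2.32 peaks per 100 kb at days 0, 9 and 28. Hdac9 had the lowest density of the 9 at day 9 and day 28, with 0.575 and 0.767 peaks per 100 kb in a window of 521.3 kb. Pooled over their windows, the class IIa genes had 2.95, 5.80 and 4.11 peaks per 100 kb at days 0, 9 and 28 and the class I genes had 1.10, 3.31 and 2.64. Class IIa held both the 2 densest genes and Hdac9. At day 9 the order of density was Hdac7, Hdac5, Hdac1 (9.01 peaks per 100 kb), Hdac3 (8.45), Hdac4 (8.09), Hdac6 (1.73), Hdac2 (1.48), Hdac8 (1.15) and Hdac9. With 1 list per day there is no spread by which neighbours in this order could be told apart. Peaks in the flanks of a window count towards these densities, also where the start site of another gene lies nearer.

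**Figure D1:**
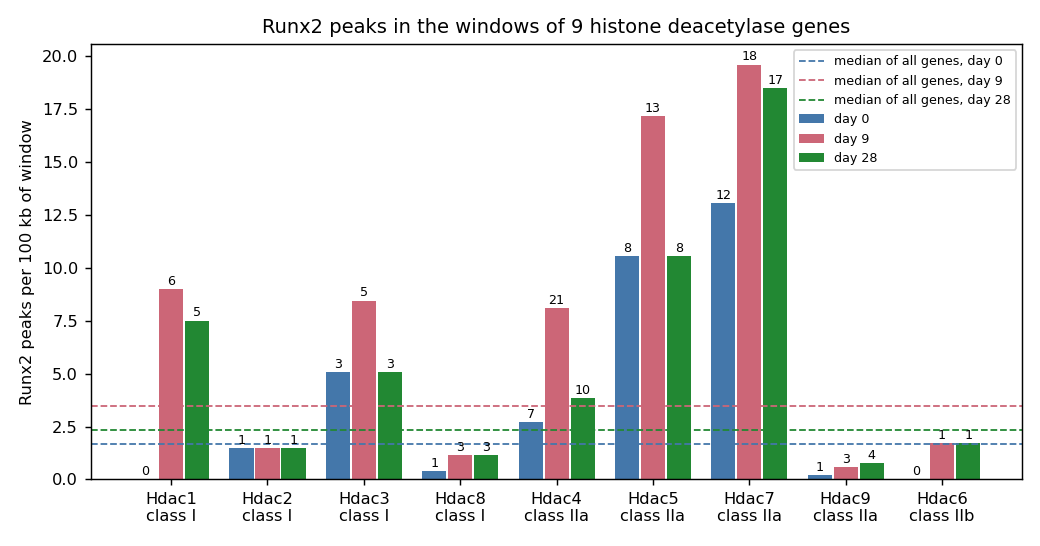
Runx2 peaks per 100 kb of window (vertical axis) for each histone deacetylase gene at days 0, 9 and 28, with the number of peaks above each bar and dashed lines at the median of all 22241 genes. Hdac7 and Hdac5 lie well above the dashed lines at every day, while Hdac2, Hdac6, Hdac8 and Hdac9 lie below the day 9 median of 3.49.

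The number of member peaks followed the length of the lists. Day 9 had 2.15 times the member peaks of day 0, where the whole list had 2.38 times as many peaks. From day 9 to day 28 the ratios were 0.732 for the members and 0.666 for the whole list, and from day 0 to day 28 both were 1.58. When the 25457 highest-scoring peaks of each list were kept, the windows held 33, 31 and 34 peaks at days 0, 9 and 28, so day 9 then no longer had the most. Read totals were not used here, and the part of read depth in the number of peaks was not tested.

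At day 0, 7 of the 9 genes had a peak in the window, where 65.0% of all genes had one. All 9 had one at day 9, beside 76.9% of all genes, and all 9 had one at day 28, beside 71.2%. The 2 genes without a day 0 peak were Hdac1 and Hdac6, so 7 of 9 had a window peak at all 3 days, beside 62.7% of all genes. The shortest member window, that of Hdac6, was 57.8 kb, beside a median of 55.5 kb over all genes. A longer window has more room for a peak, and no share was taken over genes of like window length. A window of 20 kb on each side is a fixed distance, and the nearest peak left out lay 0.108 kb beyond the Hdac7 window at day 9, while the peak nearest to an edge on the inside reached 0.823 kb into the Hdac1 window at day 28.

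The height of a peak is given here as the percentile of its score within its own list, since scores of lists of different depth are not on 1 scale. The score is 10 times the negative log10 of the peak caller's p-value. The value 3100 was shared by 192, 2699 and 1468 peaks of the day 0, 9 and 28 lists, so peaks at that value could not be ranked against each other and take a common percentile. The median member peak stood at percentile 38.2, 47.7 and 51.6 at days 0, 9 and 28. Above percentile 90 of their lists stood 3 of 33, 8 of 71 and 7 of 52 member peaks (9.09%, 11.3% and 13.5%), beside the 10% of a list that lies there by definition.

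Among the class I genes, the strongest binding lay at the start site of Hdac2. Its single region, chr10:36693547-36695165, covered the first start site at all 3 days, with scores of 1030.3, 3207 and 2825.5 at days 0, 9 and 28. These stood at percentiles 91.2, 99.9 and 95.1, and the day 9 value was the highest percentile of any member peak. That rank takes the shared value 3100, held by 2699 day 9 peaks, as a plain score. Whether Hdac2 was bound more strongly than the member peaks at that value cannot be told. The rest of the Hdac2 window held no peak at any day. The peaks centred 41 bp before the start site at day 0 and 92 bp and 47 bp after it at days 9 and 28. The TGTGGT printed above was within 50 bp of the centre only at day 0, since it lay 29.5 bp from the day 0 centre and 162.5 bp and 117.5 bp from the day 9 and day 28 centres.

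Hdac1, a catalytic subunit of the Sin3, NuRD and CoREST complexes, had 7 regions and none at day 0. The region over its only annotated start site, chr4:129219502-129220422, stood at percentile 69.0 at day 9 and 65.4 at day 28. This was the highest Hdac1 region at both days. The next, chr4:129187676-129188445, lay beyond the 3′ end of the gene and stood at percentiles 59.98 and 48.9. None of the 2 other genes that start in the Hdac1 window had a peak over its start site. Apart from the peak over the Hdac1 start site, the day 9 peaks of this window lay outside the gene body. Their nearest start site was that of Marcksl1 or Lck.

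Hdac3, the catalytic subunit of nuclear receptor corepressor complexes, had 6 regions, and its strongest was not at its own start. The region chr18:38094439-38095530, at the 3′ edge of Hdac3 and over the start site of the neighbouring gene Diap1, stood at percentiles 78.1, 93.9 and 91.2. The Hdac3 start site lay under chr18:38114279-38115345, which stood at percentiles 20.4, 60.1 and 50.3 at days 0, 9 and 28. This region also covered a start site of the neighbouring gene Rell2, and the lists cannot assign it to either gene. An Hdac3 peak in intron 2, chr18:38112861-38113394, was called at day 0 only, at percentile 4.62.

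Hdac8, the class I enzyme that deacetylates the cohesin subunit Smc3, had 3 regions in a window of 260.7 kb. Its strongest, chrX:99502646-99503493, overlapped coding exon 10 and intron 9 and stood at percentiles 75.7, 84.6 and 74.7. The Hdac8 sequence printed above is from this region, which held TGTGGT 3 times within the peak at each day. A region in intron 4, chrX:99642683-99643067, stood at percentiles 71.3 and 47.9 at days 9 and 28 and was not called at day 0. The start site lay under chrX:99700321-99700856, at percentiles 37.6 and 52.9 at days 9 and 28, with no call at day 0. All 3 Hdac8 peaks of day 9 and 2 of the 3 of day 28 had TGTGGT within 50 bp of the centre, and the day 0 peak did not.

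Among the class IIa genes, Hdac4 was bound away from its start sites. Hdac4 restrains hypertrophy of chondrocytes in the growing skeleton. No peak overlapped any of its 3 annotated start sites at any day, and its highest peak lay 17.7 kb inside the gene from the first start site. That region, chr1:94026475-94028124 in intron 1, had scores of 1635.3, 3100 and 3100 at days 0, 9 and 28, at percentiles 96.3, 97.4 and 97.8. It was the highest Hdac4 peak at each day, and the sequence printed for Hdac4 comes from its centre. The nearest TGTGGT within the peak lay 332.5 bp from the day 9 centre, so the motif was in the peak but not at its midpoint.

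A pair of further regions in intron 1 of Hdac4 were bound at all 3 days. The region chr1:93957636-93958587 stood at percentiles 57.0, 88.9 and 72.7, and chr1:93976226-93977317 stood at 73.5, 80.8 and 72.6. Beyond the 3′ end of Hdac4, 8 regions lay close together in intergenic sequence, all with a day 9 peak, 3 of them also with a day 28 peak and none with a day 0 peak. The highest of these, chr1:93809266-93809866, stood at percentile 83.1 at day 9 and 29.4 at day 28. The other peaks of this group ranged from percentile 0.0767 to 72.2 at day 9. In all, 11 of the 25 Hdac4 regions were called at day 9 only, beside 34.5% of all regions in the genome. None of these 11 stood above the median score of the day 9 list. How many of all day 9 only regions stood above it was not counted.

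Hdac5, a signal-responsive repressor that binds MEF2 factors, carried its strongest peak in intron 3. The region chr11:102068990-102071911 had a score of 3100 at each of the 3 days, at percentiles 99.5, 97.4 and 97.8, and was the single member region at that shared value at day 0. The region chr11:102076833-102081437, across introns 2 and 3, held 2 peaks at each day. The peak over its internal start site stood at percentiles 71.3, 94.6 and 91.8 at days 0, 9 and 28, and the other peak, in intron 3, stood at 83.6, 68.4 and 69.9. The first start site of Hdac5 lay under chr11:102090833-102091953, which stood at percentile 31.6 at day 0, 84.4 at day 9 and 79.6 at day 28. A second internal start site, under chr11:102085656-102086974, had a peak at days 0 and 9 at percentiles 7.53 and 47.7. Upstream of the gene, chr11:102105885-102107352 stood at percentiles 88.2, 87.4 and 79.6, and was the second highest Hdac5 region at day 0. The start site nearest to it was that of the neighbouring gene BC030867. The other regions outside the Hdac5 gene body lay over the start sites of Lsm12, G6pc3 and BC030867. All of these count towards the density of the Hdac5 window.

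None of the Hdac5 peaks had TGTGGT within 50 bp of the centre, 0 of 8 at day 0, 0 of 13 at day 9 and 0 of 8 at day 28. Of all peaks in the lists, 16.0%, 25.3% and 20.9% had it there at days 0, 9 and 28. A count of 0 allows a share of up to 37.5%, 23.1% and 37.5% at days 0, 9 and 28, for counting error only and with peaks of the 3 days that overlap each other. In the sequence printed for Hdac5, the match lay 108.5 bp from the day 0 centre, and it was 466.5 bp and 356.5 bp from the centres of the day 9 and day 28 peaks. A region in intron 14, chr11:102060509-102062014, was called at day 9 only at percentile 59.7.

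Hdac7, which is known to bind Runx2 and to restrain its activity, had 22 regions, of which 9 were bound at all 3 days. At days 9 and 28 its highest peak lay in intron 1 of the longest transcript, and at day 0 it lay beyond the 3′ end, over the start site of a neighbouring gene. The region chr15:97650168-97651194 had a score of 188.9 at day 0 and 3100 at days 9 and 28, at percentiles 33.3, 97.4 and 97.8. The region chr15:97646716-97647619 was not called at day 0 and stood at percentiles 94.6 and 82.0 at days 9 and 28. Both Hdac7 sequences printed above are from these regions, and each peak held TGTGGT 3 times. The 2 matches in the printed stretch of chr15:97650168-97651194 were within 50 bp of the centre at days 0 and 28 but not at day 9, when the nearest was 94.5 bp away. A further region, chr15:97642284-97644279, stood at percentiles 64.4, 94.1 and 88.9.

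The start sites of Hdac7 were bound mainly at internal positions. The region chr15:97660485-97663675, over 3 internal start sites, had its highest peak at percentiles 71.7, 78.9 and 89.4 at days 0, 9 and 28. Another internal start site was under chr15:97644988-97645731 at percentiles 51.8 and 29.4 at days 9 and 28. That region also overlapped the stretch before the start site of the gene model Gm17532. The first start site had a peak at day 28 only, chr15:97674862-97675564, at percentile 1.60. Beyond the 3′ end, chr15:97614391-97615653 covered the start site of the haem transporter gene Slc48a1 and stood at percentiles 74.2, 88.5 and 90.8. A region in intron 4, chr15:97640767-97641466, was called at day 9 only at percentile 57.1.

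**Figure D2:**
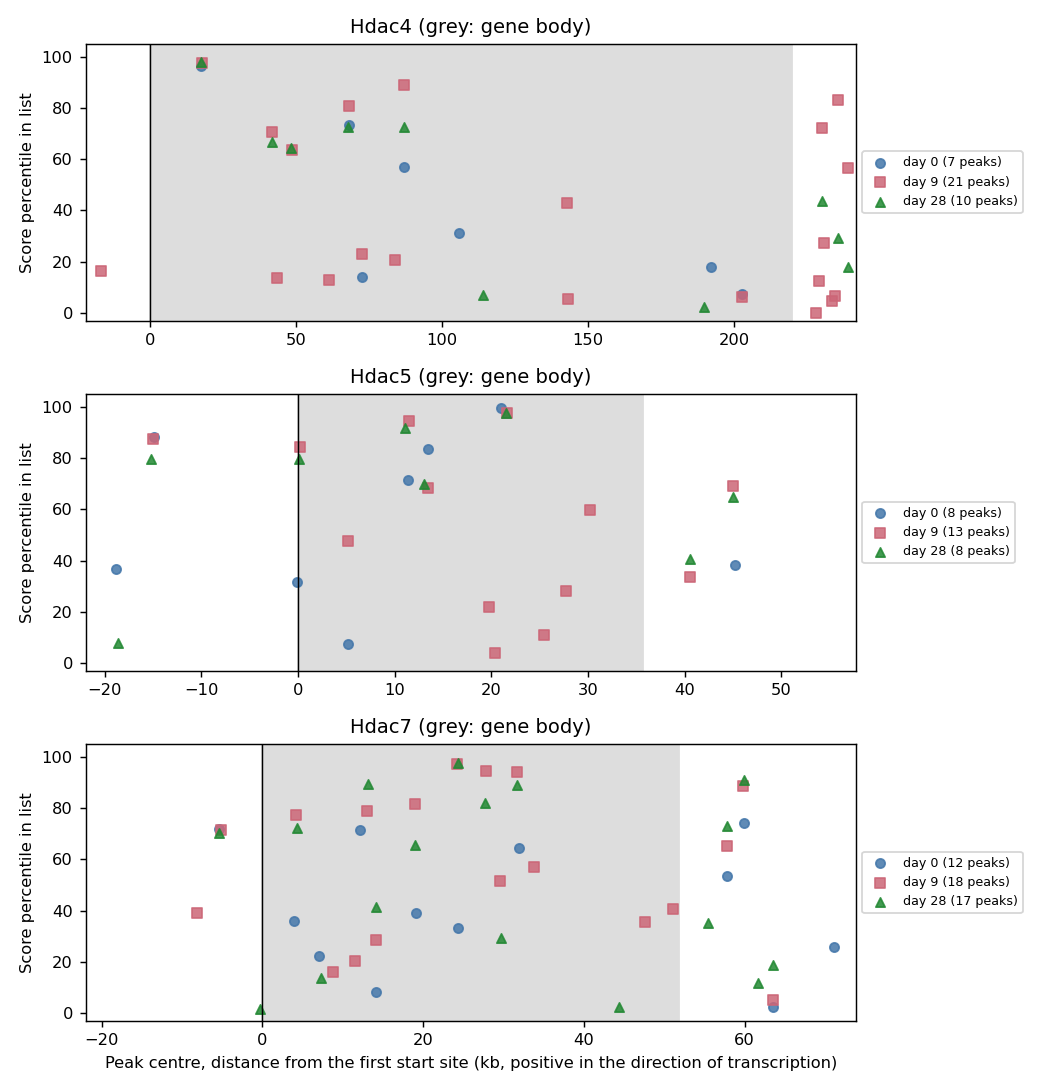
Score percentile of each Runx2 peak within its list (vertical axis) against the distance of its centre from the first start site in kb (horizontal axis) for Hdac4, Hdac5 and Hdac7, with the gene body in grey. The highest peaks lie inside the genes, at 17.7 kb in Hdac4 and near 21.0 kb in Hdac5 at all days and near 24.3 kb in Hdac7 at days 9 and 28, while the highest day 0 peak of Hdac7, at percentile 74.2, lies beyond the gene.

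Hdac9, a class IIa enzyme with a gene body of 481.3 kb, had 5 regions and no high peak. Its region downstream of the 3′ end, chr12:34724928-34726219, had a peak at all 3 days at percentiles 9.68, 14.4 and 38.9. The highest day 9 peak, chr12:35052344-35053092 in intron 1, stood at percentile 43.7 and was called at day 9 only. The first start site had a peak at day 28 only, chr12:35214105-35214406, at percentile 23.4. At a p-value threshold of 1e-50 in place of 1e-10, Hdac9 had no peak at any day.

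Hdac6, the class IIb gene, had a single region. This region, chrX:7524827-7525676, covered all 3 annotated start sites and had scores of 698.0 at day 9 and 491.2 at day 28, at percentiles 74.2 and 61.1. No day 0 peak was called in the Hdac6 window. None of the 3 other genes that start in this window had a peak over its start site.

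A peak over a start site, here from 1000 bp before to 150 bp after it, was found at 4 of the 9 genes at day 0, beside 42.8% of all genes. At day 9 the count was 7 of 9, beside 51.7%, and at day 28 it was 8 of 9, beside 50.2%. Hdac2, Hdac3, Hdac5 and Hdac7 were bound at a start site at all 3 days, 4 of 9 beside 41.5% of all genes. Hdac1, Hdac6 and Hdac8 were bound at days 9 and 28, Hdac9 at day 28, and Hdac4 at no day. Hdac7 has 10 annotated start sites and Hdac5 has 7, and with the first start site alone the counts were 3, 6 and 8 of 9. At a p-value threshold of 1e-50, with any start site, the counts were 1, 5 and 4. The shares of all genes given above are for any start site and the full lists. No share of all genes was taken for the first start site alone or for the stricter threshold. The counts under those settings therefore have no genome-wide share to stand beside. Of the 6 genes whose first start site was covered at both day 9 and day 28, the percentile was higher at day 9 in Hdac1, Hdac2, Hdac3, Hdac5 and Hdac6 and higher at day 28 in Hdac8.

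**Figure D3:**
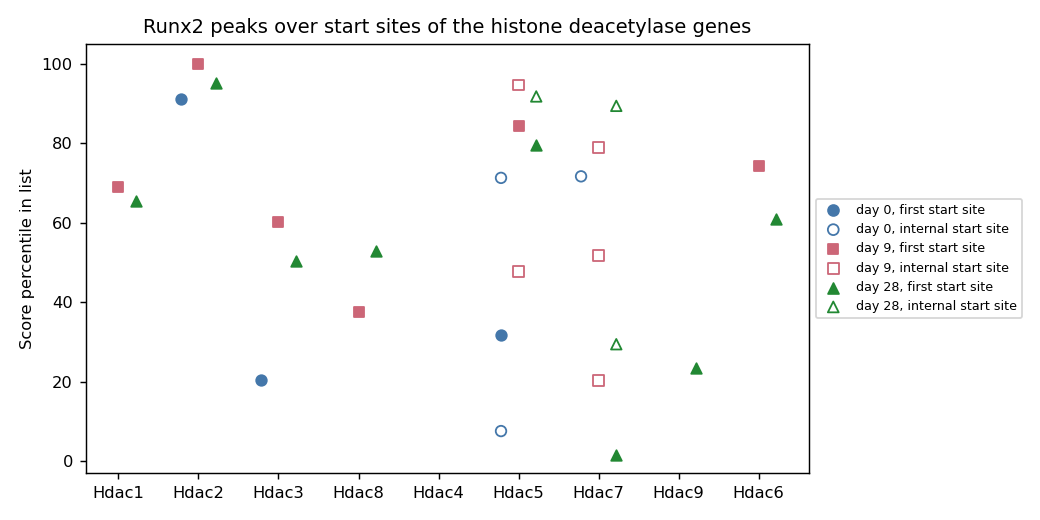
Score percentile within its list (vertical axis) of each Runx2 peak over a start site of a histone deacetylase gene, filled for the first start site and open for an internal one. A peak was over a start site when it overlapped the stretch from 1000 bp before to 150 bp after it. Hdac2 stands between 91.2 and 99.9 at all days, Hdac4 has no point, and Hdac9 has a single day 28 point at 23.4.

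Overlapping peaks of different days (1 bp or more in common) were joined into 81 regions at the 9 genes, of 67703 in the genome. Peaks at days 0, 9 and 28 were found in 22 of the 81 (27.2%), beside 27.4% of all regions. Peaks at days 9 and 28 were found in 16 regions (19.8%), beside 21.1%, and at day 9 only in 24 (29.6%), beside 34.5%. Day 28 only took 10 regions (12.3%, exact 95% interval 6.08 to 21.5), beside 7.59%. Day 0 only took 4 regions beside 5.60%, days 0 and 9 took 3 beside 1.69%, and days 0 and 28 took 2 beside 2.06%. Each genome-wide share lay within the exact interval of the members' share, so no difference in timing from the genome was detectable with 81 regions.

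**Figure D4:**
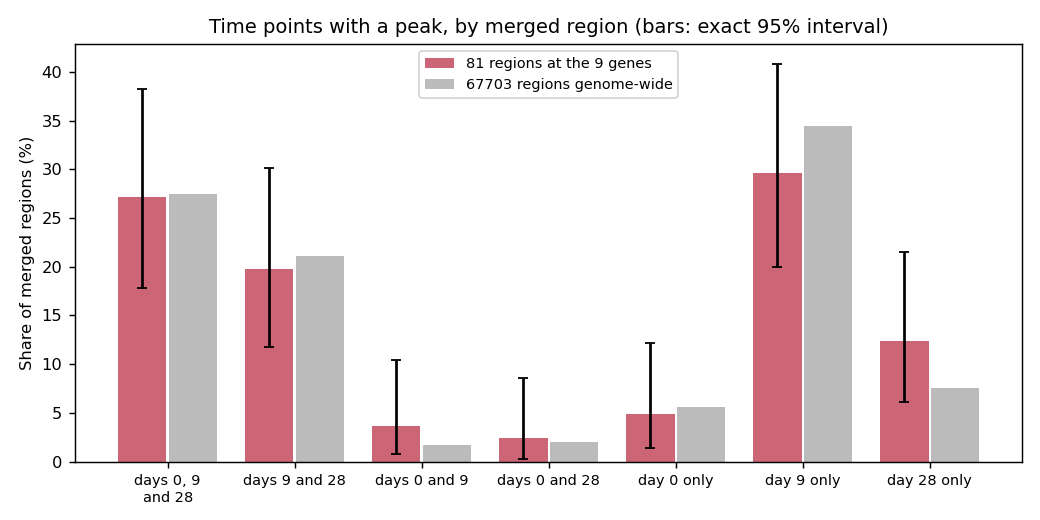
Share of merged regions in percent (vertical axis) by the days with a peak, for the 81 regions at the histone deacetylase genes and for all 67703 regions, with exact 95% intervals for the former that cover counting error only. Every grey bar lies within the interval of the bar beside it.

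The day 28 regions without an earlier peak all stood below the median score of their list. They belonged to Hdac7 (4 regions), Hdac9 (3), Hdac4 (2) and Hdac1 (1), and the highest of them, chr15:97619192-97619783 beyond the 3′ end of Hdac7, stood at percentile 35.2. Of the regions bound at a single day, 2 stood above the median score of their list, those in intron 14 of Hdac5 and intron 4 of Hdac7, both at day 9. Scores of single-day regions were not summarised over the genome, so these positions have no genome-wide share to stand beside.

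Within the 22 regions bound at all 3 days, the score percentile was higher at day 9 than at day 0 in 19, beside 75.5% of all such regions. The difference ranged from -2.12 to 64.1 percentile points with a median of 11.4, where the median of all such regions was 15.6. Without regions at the shared score of 3100 at both days, it ranged from -0.845 to 64.1 with a median of 11.8, beside 15.8. The region in intron 1 of Hdac7 had the highest of these differences, followed by the first start site of Hdac5. From day 9 to day 28 the percentile was higher in 8 of 22 regions, beside 33.4%. From day 0 to day 28 it was higher in 17 of 22, beside 69.3%. Regions at the shared score of 3100 at both days differ only by the number of ties, and without them the percentile was higher in 19 of 21 at day 9 than at day 0 (beside 76.2%), in 5 of 19 at day 28 than at day 9 (beside 28.6%) and in 17 of 21 at day 28 than at day 0 (beside 69.9%). These are positions within lists of different length, and no replicate error stands behind them.

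Within the windows, 60.6%, 59.2% and 53.8% of the peaks at days 0, 9 and 28 had their centre inside the gene body of the member. By the annotation at the peak centre, 20 of 33 day 0 peaks (60.6%), 40 of 71 day 9 peaks (56.3%) and 25 of 52 day 28 peaks (48.1%) lay in introns, beside 36.4%, 42.9% and 40.6% of all peaks. Windows drawn around genes hold less intergenic sequence than the genome, so these shares describe the windows and are no comparison with the genome.

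Peaks over start sites of any gene were richer in G and C than the others, as in the whole lists. In 501 bp around the centre, the 16 such member peaks of day 9 had a median of 64.1% G and C (range 49.1% to 77.0%) and the other 55 had a median of 53.9%, beside 65.1% and 51.1% in the whole list. The peaks over the Hdac2 start site were among the richest, at 71.9% to 73.5%. Those over the Hdac8 and Hdac9 start sites were poor, at 49.1% to 49.3% and at 41.9%. The Hdac9 peak was centred 501 bp before its start site.

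TGTGGT, on either strand and wholly within 50 bp of the peak centre, was present in 4 of 33 member peaks at day 0 (12.1%, exact 95% interval 3.40 to 28.2), beside 16.0% of all peaks. At day 9 it was present in 12 of 71 (16.9%, 9.05 to 27.7), beside 25.3%, and at day 28 in 7 of 52 (13.5%, 5.59 to 25.8), beside 20.9%. Each whole-list share lay within the members' interval, so no difference was detectable with this number of peaks. In stretches of the same length placed 450 to 550 bp from the centre, the members had it in 9.09%, 5.63% and 5.77% at days 0, 9 and 28. The median member peak was 1033, 589 and 738 bp long at these days, so such stretches lay partly inside the longer peaks. The difference between centre and flank was not tested. Among day 9 peaks that were not over a start site, the motif was at the centre of 10 of 55 member peaks (18.2%, 9.08 to 30.9) beside 30.2% of the whole list. The same share was 3 of 23 at day 0 (13.04%, 2.78 to 33.6) beside 22.2%, and 4 of 35 at day 28 (11.4%, 3.20 to 26.7) beside 26.8%, just above the interval. Peaks over a start site of any gene went the other way. There the motif was at the centre of 1 of 10 member peaks at day 0 (10%, 0.253 to 44.5) beside 4.80%. At day 9 it was 2 of 16 (12.5%, 1.55 to 38.3) beside 6.19%, and at day 28 it was 3 of 17 (17.6%, 3.80 to 43.4) beside 5.20%. Anywhere in the peak, TGTGGT was present in 54.5%, 54.9% and 57.7% of member peaks at days 0, 9 and 28. Whole peaks are longer stretches in which a run of 6 letters is found more often. No such share was taken over all peaks, so these values have none to stand beside. The centre is the midpoint of the peak as listed, and summits were not analysed here.

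In the 250 bases before and 50 bases from a start site, TGTGGT was present at 14.8% of the 45975 annotated protein-coding start sites. It was present at the first start site of Hdac2 and of Hdac6 and not at that of the other 7 genes. Over all start sites, it was present at 2 of 3 of Hdac2, 1 of 3 of Hdac4, 3 of 10 of Hdac7 and 1 of 3 of Hdac6. A match is a run of letters and not by itself a binding site.

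Other genes of the same machinery were counted in the same way, beside the shares of all genes with a window peak (65.0%, 76.9% and 71.2% at days 0, 9 and 28) and with a start-site peak (42.8%, 51.7% and 50.2%). Of the 9 other deacetylases listed, Hdac10, Hdac11 and Sirt1 to Sirt7, 9 had a peak in the window and 9 over a start site at every day. The densest of them at day 9 was Sirt7, a nucleolar deacetylase, with 25.6 peaks per 100 kb from 12 peaks. Of 23 genes of the corepressor complexes that carry deacetylases, 22 had a peak in the window at each day, and 21, 22 and 22 had a peak over a start site at days 0, 9 and 28. Gatad2b, a subunit of NuRD, was the 1 gene without a peak at any day. The densest at day 9 was Mbd3, also of NuRD, with 23.4 peaks per 100 kb from 11 peaks. Of the 9 acetyltransferases listed, which add the groups that deacetylases remove, 9 had a peak in the window and 9 over a start site at each day, and the densest at day 9 was Kat7, with 11.8 peaks per 100 kb. Their medians at day 9 were 10.3, 6.22 and 6.86 peaks per 100 kb for the other deacetylases, the corepressor genes and the acetyltransferases, beside 8.09 for the 9 members and 3.49 for all genes. The members' median was 1.48 at day 0 and 3.85 at day 28, beside 1.69 and 2.32 for all genes. Pooled over all windows, the 9 members had 2.26, 4.86 and 3.56 peaks per 100 kb at days 0, 9 and 28, beside 1.94, 4.38 and 2.94 for all genes.

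The genes with counts most like those of Hdac7 were sought among the 1549 genes whose window length was within 10% of its own, by the Euclidean distance between the 3 counts. They were Zcchc24 (11, 21 and 15 peaks at days 0, 9 and 28, distance 3.74), Prrx2 (14, 22 and 18, distance 4.58) and Gsn (9, 17 and 13, distance 5.10). Prrx2 encodes a homeodomain factor of mesenchyme and Gsn encodes gelsolin, which severs actin filaments.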

How the data were processed

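Runx2 ChIP-Seq was done in MC3T3-E1 cells at days 0, 9 and 28, with input DNA of day 9 cells. Per the study's methods and the submitters' processing notes, base calls were made with CASAVA 1.6, single-end reads of the replicate libraries were pooled and mapped to mm9 with Bowtie 0.12.8, and peaks were called against input with MACS 1.4.1 and retained at a p-value of 1e-10. The score in each deposited list is 10 times the negative log10 of that p-value, as the authors' peak caller wrote it. The lowest deposited score was 100. The lists hold no read counts. Read totals per sample were not used here, and no correction for depth was made.

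Peaks were read from the 3 lists and placed on the GENCODE M1 annotation of NCBIM37, the same assembly. No peak ran past the end of a chromosome. Entries of 1 symbol whose windows met were united, which left 22241 genes. A start site was any 5′ end of a protein-coding transcript. The 9 members, the lists of related genes and the tests were chosen with earlier results of these data known. Named regions were, for each member, the highest at day 9, that over a start site, and those of a single day above the median of its list, with other regions added after their values were seen. Other genes were named from fixed lists as the densest at day 9 or as lacking a peak there, as neighbours bound at a start site, or as the 3 most like Hdac7. All 41 listed genes were matched.

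No test was made, since each time point has 1 list. Each 95% interval of a share is the Clopper-Pearson one and reflects counting error alone, and a count of 0 was given the limit of 3 counts. The overlap, joining and motif steps were tested on simulated data. Alternatives were p-values of 1e-20 and 1e-50, equal numbers of top-scoring peaks, other windows, peak centres, other joining rules and other motif windows. Python 3.11.15, SciPy 1.17.1, pysam 0.24.0 and Matplotlib 3.10.9 were used.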

Additional observations from a re-analysis of the deposited data

How the results depend on the processing

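Of 96 values recomputed under alternative settings, 77 stayed close to the value given (within 1.5 times for counts, within the 95% interval for shares) and 19 moved. The 77 include the day 0 values with equal numbers of top-scoring peaks, which could not move since 25457 peaks is the whole day 0 list. The intervals of the shares were wide, so a share could change and still count as close. At a p-value of 1e-20 the windows held 18 peaks at day 0 and 40 at day 9, with 45 joined regions. At 1e-50 they held 9, 26 and 24 peaks at days 0, 9 and 28, with 27 regions and a peak over a start site at 1 gene at day 0 and 4 at day 28. With the 25457 top-scoring peaks of each list, the windows held 31 peaks at day 9 and 34 at day 28, with 44 regions, and the order of the days, the same under the other 6 settings of threshold and window, was lost. Gene bodies alone held 43 peaks at day 9 and 32 at day 28, with 49 regions. TGTGGT was within 100 bp of the centre in 29.6% of day 9 peaks, and anywhere in the peak in 54.5%, 54.9% and 57.7% at days 0, 9 and 28, since longer stretches were searched. No share over all peaks was taken for these longer stretches. The number of genes with a peak in the window stayed within 6 to 9 under every setting run. No paired analysis was possible because each time point has a single pooled list, and for the same reason no library could be left out. Depth and the single control limit every comparison between days.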

Other observations

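Of 13 other genes that start within the windows, 8 had a peak over a start site at some day, with 5, 7 and 8 at days 0, 9 and 28 beside 42.8%, 51.7% and 50.2% of all genes. Diap1, Rell2, Lsm12 and Slc48a1 were bound at days 0, 9 and 28. Diap1, which neighbours Hdac3, encodes a formin that builds actin filaments. Fchsd1, G6pc3 and Gm17532 were bound at days 9 and 28, and BC030867 at days 0 and 28. G6pc3, which neighbours Hdac5, encodes a glucose-6-phosphatase subunit. All 8 lie in the windows of Hdac3, Hdac5 and Hdac7, and the 5 that were not bound lie in those of Hdac1 and Hdac6.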
